A study of Mus musculus with 6 samples.

Results

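Nuclear genes for the proteins of the mitochondrial ribosome were compared between the synaptic and extrasynaptic regions of mouse muscle fibres. Members were all genes with a symbol of the form Mrpl or Mrps, a number and at most 1 closing letter from a to c. They were taken from rows that carried only that gene's symbol, and a gene with several rows was represented by the row with the highest mean. The rule found 68 genes among 14860 distinct symbols, 43 named for the large subunit (Mrpl) and 25 for the small subunit (Mrps), and the rule used no measured difference. The arrays held RNA of tibialis anterior muscle, a fast leg muscle, from 16-week-old ICR mice, an outbred strain. After staining of sections for acetylcholinesterase, a laser was used to capture neuromuscular junctions (NMJs) and, from the same fibres, as much area without junctions. The labels name no treatment and no mutation in either group. Biotin-labelled cDNA from 10 ng of RNA per sample was measured on Affymetrix exon arrays, with 3 arrays for each region. Neither the number of animals nor a link between replicate numbers and animals is given, so p-values measure the spread between these arrays, which may be technical.

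The mitochondrial ribosome sits in the mitochondrial matrix and translates the few messenger RNAs of mitochondrial DNA, which encode core proteins of the respiratory chain and ATP synthase. Its RNA comes from mitochondrial DNA, but all of its proteins are encoded in the nucleus and imported. Some have a counterpart in the bacterial ribosome and others are found only in mitochondria. Inherited defects of several of these proteins cause respiratory chain deficiency in humans, often with disease of heart or skeletal muscle.

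Genes of the mitochondrial ribosome were lower at the junctions. Of 68 members, 39 (57.4%) fell and 0 rose in NMJ regions by limma (adjusted p under 0.05 over all 23332 rows). Over all rows 8.63% were called lower and 14.4% higher. The median log2 difference of the members, NMJ minus non-NMJ, was -0.44, against -0.01 for all rows, which is a 1.36-fold lower value. The difference lay below 0 for 65 members and above 0 for 3. At an unadjusted p under 0.05, 51 members were lower and 0 higher, against 14.3% and 20.5% of all rows. The largest decreases were those of Mrpl30 and Mrpl55, the only members called at least 2-fold lower, a size that 1.53% of all rows reached.

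The members were bright rows, for which calls were more frequent in both directions. In 67 of 68 members every array's value lay above the median of that array, with Mrpl21 as the exception, whose level over background is unknown. Among the 2064 rows whose mean log2 value lay in the middle range of the members (7.56 to 8.94), 23.6% were called lower and 22.6% higher, with a median difference of -0.03. Of the 17 members with the dimmest rows 2 were called lower, against 12, 13 and 12 in each next brighter set of 17. Row brightness also depends on the probes, so it does not rank the genes by their expression.

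Promoter sequences are shown for 4 members whose results recur below, since many nuclear genes of mitochondrial proteins share binding motifs of the transcription factors NRF1, the ETS factor GABP and YY1. Sequences are from RefSeq (GRCm38.p6), 250 bases before the start of the transcript, 5′ to 3′ on the gene's strand. Capitals mark a match to the NRF1 core letters CGCANGCGC or the ETS letters CCGGAAG, read on either strand. Mrpl30 (chr1:37890227-37890476, plus strand) and Mrpl12 (chr11:120484387-120484636, plus strand) are members with large decreases and an NRF1 match, Mrps26 (chr2:130563507-130563756, plus strand) is one with an ETS match, and Mrpl39 (chr16:84735245-84735494, minus strand) has NRF1 matches on both strands, which overlap, and was not called.
Mrpl30: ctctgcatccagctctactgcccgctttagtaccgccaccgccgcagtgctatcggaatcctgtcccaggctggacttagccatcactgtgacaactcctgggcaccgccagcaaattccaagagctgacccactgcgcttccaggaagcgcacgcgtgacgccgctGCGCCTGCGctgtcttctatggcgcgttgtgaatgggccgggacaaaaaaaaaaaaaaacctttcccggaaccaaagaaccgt
Mrpl12: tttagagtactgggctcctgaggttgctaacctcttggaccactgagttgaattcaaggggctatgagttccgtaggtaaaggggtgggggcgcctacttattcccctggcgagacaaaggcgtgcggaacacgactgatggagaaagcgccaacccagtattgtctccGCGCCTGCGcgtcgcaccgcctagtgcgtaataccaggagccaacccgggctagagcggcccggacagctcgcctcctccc
Mrps26: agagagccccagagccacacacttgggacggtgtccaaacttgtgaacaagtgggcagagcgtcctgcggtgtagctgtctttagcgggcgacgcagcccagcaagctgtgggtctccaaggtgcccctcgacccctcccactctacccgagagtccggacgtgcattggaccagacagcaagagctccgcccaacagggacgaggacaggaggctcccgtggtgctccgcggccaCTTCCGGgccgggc
Mrpl39: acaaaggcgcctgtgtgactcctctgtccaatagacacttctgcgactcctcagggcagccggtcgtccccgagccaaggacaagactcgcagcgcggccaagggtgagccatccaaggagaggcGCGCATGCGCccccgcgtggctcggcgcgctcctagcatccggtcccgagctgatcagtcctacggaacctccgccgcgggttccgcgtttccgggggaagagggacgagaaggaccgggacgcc
Of the 68 members 59 had a promoter entry. NRF1 letters were in the window of 13 members (22%), against 5.88% of all 27025 genes. ETS letters were in that of 14 members (23.7%), against 7.83% of all genes, and the YY1 letters AAGATGGC in that of 4 (6.78%), against 1.83%. The NRF1 letters were in the window of 7 of the 34 members called lower that had an entry (20.6%) and of 6 of the other 25 (24%). The ETS letters were in that of 8 of the former (23.5%) and 6 of the latter (24%), and the YY1 letters in that of 3 (8.82%) and 1 (4%). Members with and without the NRF1 letters had median log2 differences of -0.45 and -0.44, with and without the ETS letters of -0.47 and -0.43, and with and without the YY1 letters of -0.54 and -0.43. A match is a description of letters in this window, and these values were not tested.

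The decreases were larger than the spread between arrays for most members. In 53 of 68 members (77.9%) all 3 NMJ arrays lay below all 3 non-NMJ arrays, against 18.2% of all rows. The reverse was seen in 1 member, Mrpl10, against 22.8% of all rows, and the groups overlapped in 14. These shares were not taken among rows as bright as the members. When 1 NMJ array was left out of the fit (replicate 1, 2 or 3), 25, 25 or 24 members were called lower. When a non-NMJ array was left out, the counts were 25, 26 and 35 in the same order. Calls over all rows, in either direction, fell as well. They went from 5364 to 3373 without NMJ replicate 1 and to 3535 without NMJ replicate 2. In every one of these 6 fits 23 of the 39 calls remained. The other 16 were lost in at least 1 of them, with highest adjusted p-values between 0.0527 and 0.143: Mrpl2, Mrpl3, Mrpl4, Mrpl20, Mrpl32, Mrpl43, Mrpl46, Mrpl49, Mrpl50, Mrpl52, Mrpl57, Mrpl58, Mrps7, Mrps18b, Mrps23 and Mrps35.

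**Figure D1:**
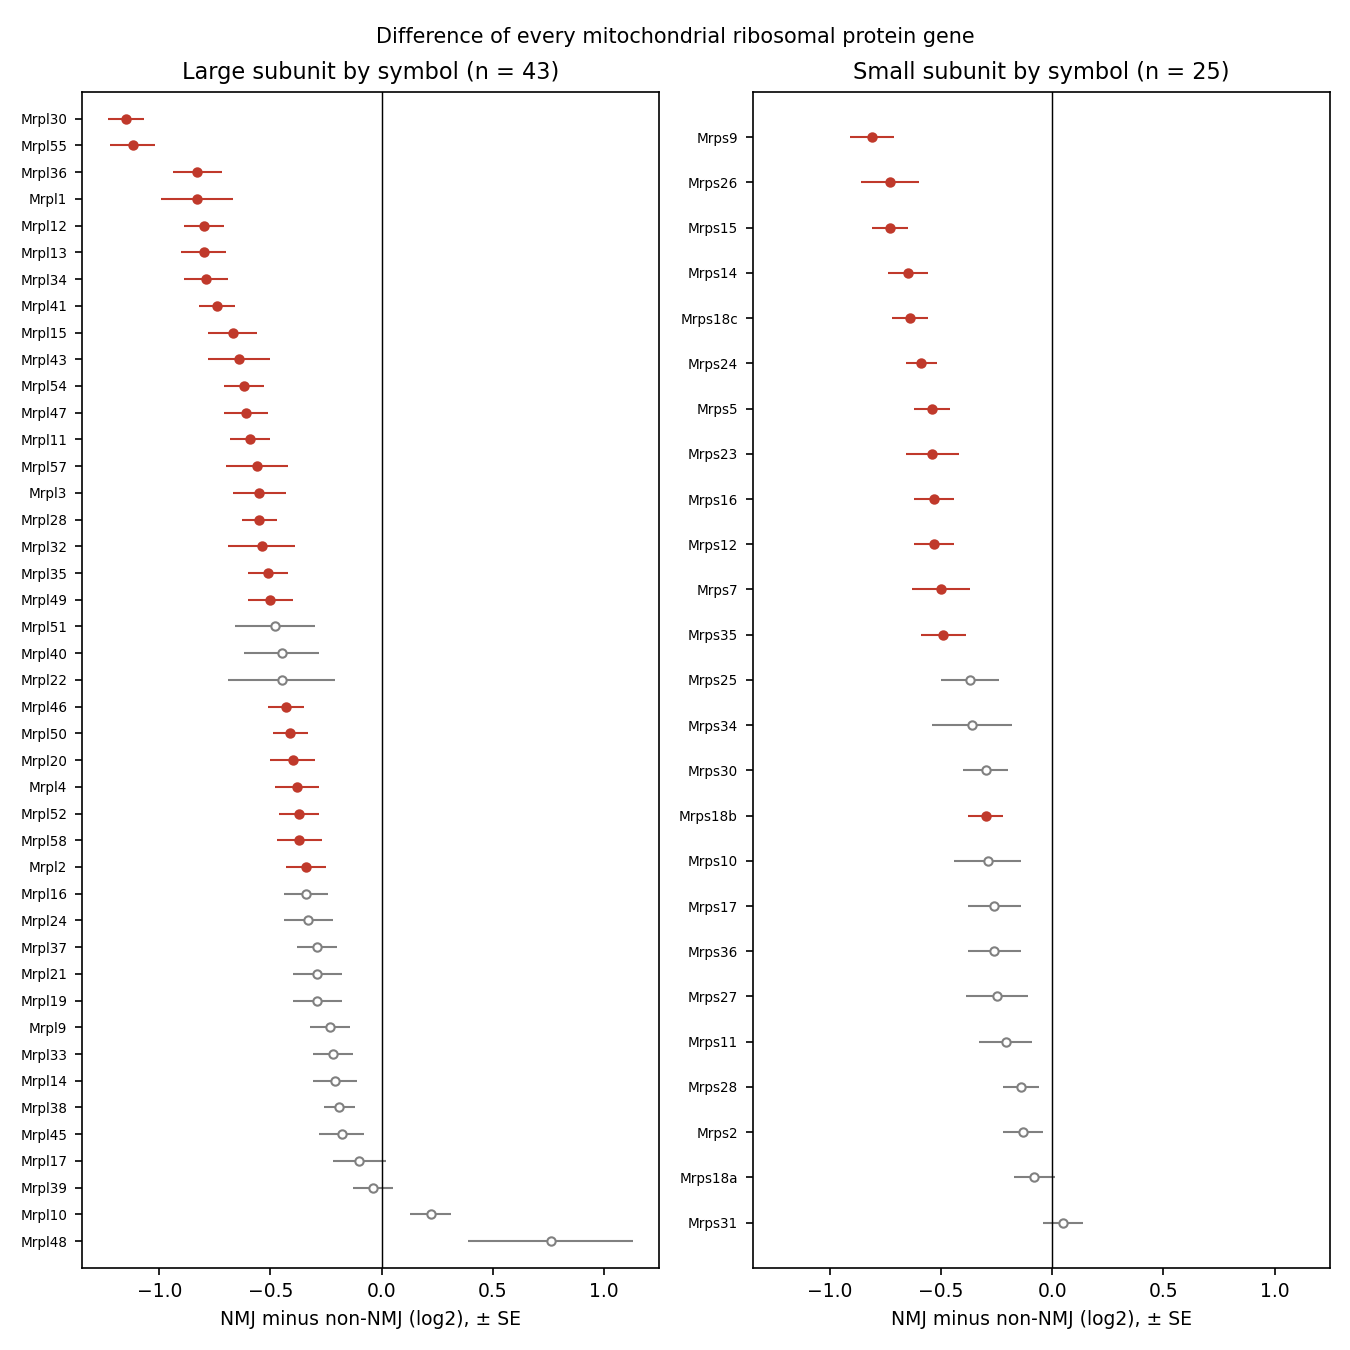
Log2 difference, NMJ minus non-NMJ, of each of the 43 large and 25 small subunit members, with the standard error of the limma fit (n = 3 arrays per region). Filled red points are the 39 members called lower at an adjusted p under 0.05, and open grey points were not called. Only Mrpl10, Mrpl48 and Mrps31 lie to the right of 0.

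Among large subunit members, 26 of 43 (60.5%) fell and 0 rose, with a median log2 difference of -0.45. Leaving out an NMJ array gave 16, 16 or 15 (replicate 1, 2 or 3), and leaving out a non-NMJ array gave 16, 17 or 23. Mrpl30, which encodes the counterpart of a bacterial large subunit protein, had log2 values of 9.44, 9.45 and 9.41 in the junction samples and 10.60, 10.50 and 10.66 in the others. The NMJ arrays were nearly equal and lay about 1 log2 unit below every non-NMJ array. Its difference was -1.15 ± 0.08 (SE, n = 3 per region), a 2.22-fold decrease with a limma adjusted p of 0.00037. Mrpl55, placed in the central protuberance that contacts transfer RNA in structures of the mammalian particle, had log2 values of 7.97, 7.70 and 7.83 at the junctions and 9.01, 8.90 and 8.95 away from them. The regions were again well apart, and the decrease was 2.18-fold (log2 difference -1.12 ± 0.10, SE, adjusted p = 0.000824 in limma).

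Mrpl36, Mrpl1, Mrpl12, Mrpl13 and Mrpl34, all counterparts of bacterial proteins, followed. Mrpl36, one of the smallest proteins of the particle, had log2 values of 8.84, 8.85 and 8.58 in NMJ regions and 9.68, 9.53 and 9.54 in non-NMJ regions, a 1.77-fold decrease (limma adjusted p = 0.00359). Mrpl1, which forms the mobile stalk beside the exit site of transfer RNA, had values of 8.69, 8.85 and 8.31 and of 9.57, 9.49 and 9.28. NMJ replicate 3 was the lowest array of Mrpl1, and its standard error was wider than those of the other 4 genes (log2 difference -0.83 ± 0.16, SE, limma adjusted p = 0.015). Mrpl13 had values of 8.56, 8.63 and 8.43 against 9.38, 9.43 and 9.22, a 1.74-fold decrease. Mrpl34 had values of 9.44, 9.40 and 9.19 against 10.22, 10.09 and 10.11, a 1.73-fold decrease. In each of these genes the lowest non-NMJ array was above the highest NMJ array. Mrpl41, a member with no bacterial counterpart, fell from 9.18, 9.09 and 9.16 to 8.33, 8.48 and 8.41, a difference of -0.74 ± 0.08 (SE). Mrpl15 fell from 8.49, 8.53 and 8.30 to 7.68, 7.90 and 7.73, a difference of -0.67 ± 0.11 (SE). Adjusted p-values in limma were 0.00279 for Mrpl13, 0.00307 for Mrpl34, 0.00193 for Mrpl41 and 0.00696 for Mrpl15.

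The stalk that recruits translation factors to the large subunit showed unlike values within a single structure. Mrpl12 forms the flexible stalk itself and has also been reported to bind the mitochondrial RNA polymerase. Its log2 values were 10.58, 10.48 and 10.57 at the junctions and 11.36, 11.24 and 11.43 elsewhere, a 1.74-fold decrease (-0.80 ± 0.09, SE, limma adjusted p = 0.00175). Mrpl11, at the base of the stalk, had values of 9.14, 9.29 and 9.17 against 9.90, 9.69 and 9.80, a 1.51-fold decrease (limma adjusted p = 0.00706). Mrpl10, the protein to which the copies of Mrpl12 attach, had values of 7.61, 7.73 and 7.47 at the junctions and 7.41, 7.40 and 7.36 elsewhere. It was thus the 1 member with every NMJ array above every non-NMJ array, but its log2 difference of 0.22 ± 0.09 (SE) did not pass (limma adjusted p = 0.164). It was 0.08 after quantile normalization and 0.08 after median centring. The difference between Mrpl10 and Mrpl12 was not itself tested.

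**Figure D2:**
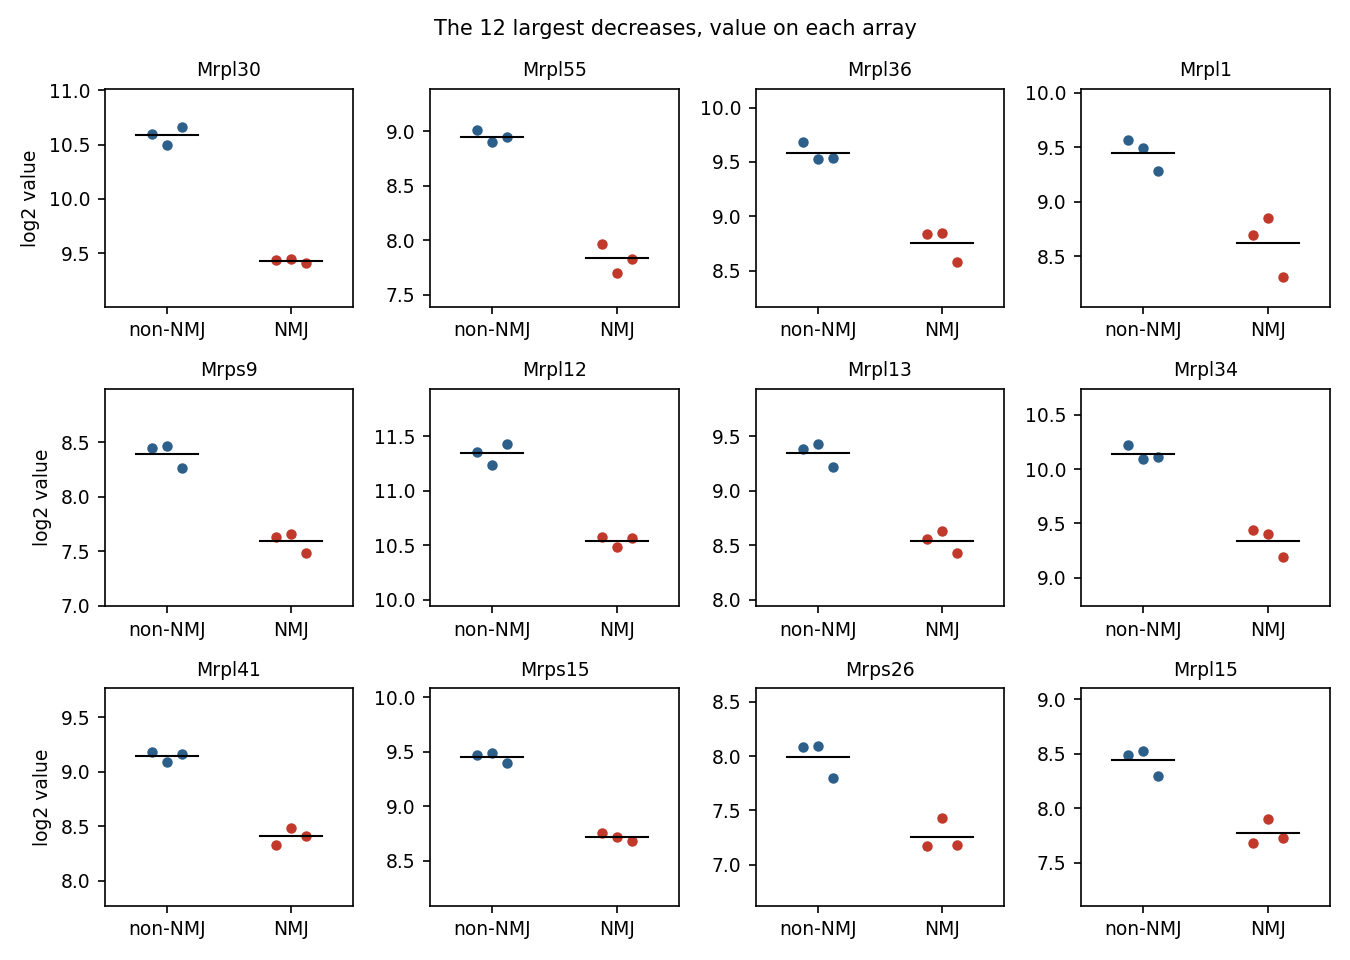
Log2 values of the 12 members with the largest called decreases on each of the 3 non-NMJ arrays (blue) and 3 NMJ arrays (red), with the mean of each region as a bar. Every panel spans 2 log2 units. In all 12 genes the red points lie below the blue ones.

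Among small subunit members, 13 of 25 (52%) fell and 0 rose, with a median log2 difference of -0.37. The count was 9 without any 1 of the NMJ arrays or without non-NMJ replicate 1 or 2. Mrps9, counterpart of a protein in the head of the bacterial subunit, had log2 values of 7.63, 7.66 and 7.48 in NMJ regions and 8.45, 8.47 and 8.26 in non-NMJ regions. Its decrease was 1.75-fold (-0.81 ± 0.10, SE, limma adjusted p = 0.00282). Mrps15, an RNA-binding protein of the body of the subunit, had values of 8.75, 8.72 and 8.68 against 9.47, 9.49 and 9.40. The arrays of each region lay within 0.1 of each other, and the decrease was 1.66-fold with a limma adjusted p of 0.00155, the smallest among small subunit members. Mrps26, found only in mitochondria, had values of 7.17, 7.43 and 7.18 against 8.08, 8.09 and 7.80, a 1.66-fold decrease (limma adjusted p = 0.00963). Mrps12, which lies at the decoding centre where codon and anticodon pair, had values of 9.54, 9.50 and 9.43 against 9.93, 10.14 and 10.00. The groups did not overlap, and the decrease was 1.45-fold (limma adjusted p = 0.00939).

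The Mrps18 genes, a family of 3 related proteins, had unequal differences. Mrps18c, which takes the place of the bacterial protein in the small subunit, had log2 values of 9.50, 9.35 and 9.47 at the junctions and 10.09, 10.12 and 10.03 elsewhere, a 1.55-fold decrease (limma adjusted p = 0.00357). Mrps18b, another small subunit protein, had values of 7.73, 7.69 and 7.60 against 7.98, 8.0 and 7.95. Its difference of -0.30 ± 0.08 (SE) passed with a limma adjusted p of 0.0421, but did not pass without any 1 of the 6 arrays. Mrps18a, which structures place in the large subunit despite its name, had values of 10.28, 10.31 and 10.19 against 10.44, 10.24 and 10.35. Its groups overlapped, and the difference was -0.08 ± 0.09 (SE, limma adjusted p = 0.568). Differences between the 3 genes were not tested against each other.

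Values of the large and small subunit were close, and the order of their medians was not stable. By symbol the medians were -0.45 and -0.37, and 60.5% and 52% of the genes were called lower. Structures of the mammalian particle place Mrps18a and Mrps30 in the large subunit, and Mrps36 has been assigned to the alpha-ketoglutarate dehydrogenase complex. With those genes placed accordingly, the medians were -0.43 for 45 large subunit genes and -0.49 for 22 small subunit genes, so that the small subunit then had the lower median. By symbol the order also turned without non-NMJ replicate 1 (-0.44 large, -0.48 small) and without NMJ replicate 2 (-0.44 and -0.45), and after quantile normalization both medians were -0.50. With Mrps18a, Mrps30 and Mrps36 placed by structure, the shares called lower in the main fit were 57.8% for the large and 59.1% for the small subunit. By descent, 26 of 41 members with a bacterial counterpart fell (63.4%, median -0.53), as did 13 of 24 found only in mitochondria (54.2%, median -0.39). Mrps18a, Mrps30 and Mrps36 were put in neither set and were not called. Members found only in mitochondria had dimmer rows (median level 7.90 against 8.43), and calls were fewest among the dimmest members. Without NMJ replicate 1, 4 of 16 large and 1 of 8 small members found only in mitochondria were called. For members with a bacterial counterpart these counts were 12 of 27 and 8 of 14. After quantile normalization, 14 of 16 large and 6 of 8 small members found only in mitochondria were called. With a bacterial counterpart it was 22 of 27 and 11 of 14, so the order of the shares turned in the large subunit. The medians kept their order there (-0.48 and -0.49 against -0.57 and -0.54). No test of 1 list against another was run.

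Most members that did not pass had smaller differences than the members' median of -0.44. Exceptions with wide standard errors were Mrpl51 (-0.48 ± 0.18, SE), Mrpl22 (-0.45 ± 0.24, SE) and Mrpl40 (-0.45 ± 0.17, SE), and Mrpl48, described below. In all, 29 members did not pass, with limma adjusted p-values from 0.0608 to 0.786. Mrps25, the uncalled small subunit member with the largest difference, had values of 7.71, 7.77 and 7.57 against 8.0, 8.30 and 7.86, a mean difference of -0.37 ± 0.13 that missed the threshold in limma (SE; adjusted p = 0.108). It passed after quantile normalization (0.017) and median centring (0.0328). Mrpl39, related in sequence to an aminoacyl-tRNA synthetase, had overlapping groups at 9.01, 9.07 and 8.94 against 9.11, 9.10 and 8.94. Mrps31 had a difference of 0.05, which turned to -0.02 after quantile normalization and to -0.09 after median centring. Neither Mrpl39 nor Mrps31 differed by more than the spread between arrays.

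Mrpl48, a protein of the central protuberance, had the widest spread and 2 rows that disagreed in sign. Its brighter row (6969811) had log2 values of 7.20, 6.78 and 6.55 in NMJ regions and 6.18, 6.74 and 5.34 in non-NMJ regions. The non-NMJ arrays ranged over more than 1 log2 unit, and the difference of 0.76 ± 0.37 (SE) did not pass (limma adjusted p = 0.209). The dimmer row (6923155) had values of 1.73, 1.54 and 1.44 against 2.19, 1.80 and 2.07, with a difference of -0.45 ± 0.14 (SE, limma adjusted p = 0.0629). That row lay far below the median of every array, where the level over background is unknown. RefSeq also lists 4 pseudogene entries named after members, including Mrpl48. Neither direction of Mrpl48 is thus settled.

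**Figure D3:**
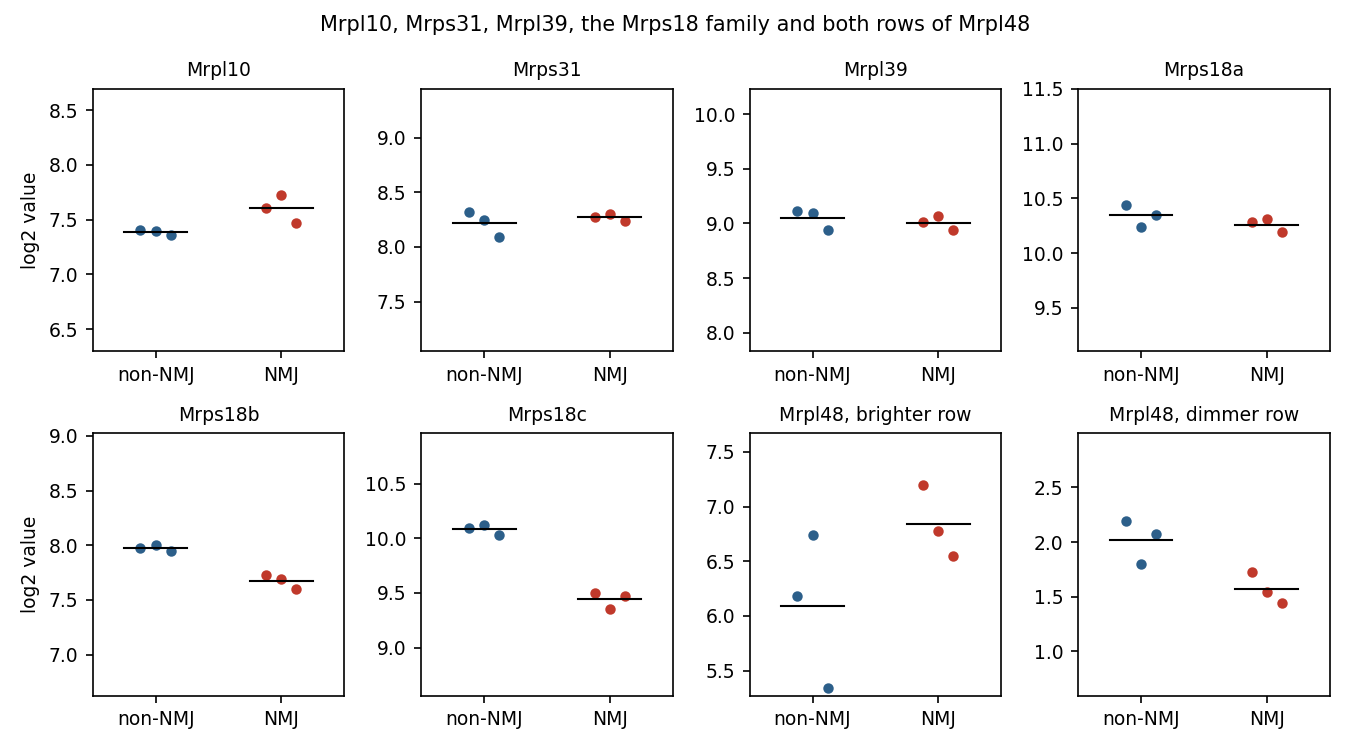
Log2 values on each of the 3 non-NMJ arrays (blue) and 3 NMJ arrays (red) of Mrpl10, Mrps31, Mrpl39, the Mrps18 genes and both rows of Mrpl48, with the mean of each region as a bar. The regions are apart in Mrps18b and Mrps18c, close in Mrps18a, Mrpl39 and Mrps31, and opposite in the 2 rows of Mrpl48.

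The arrays of a region differed little in the members as a whole. Median log2 values of the 68 members were 7.94, 7.99 and 7.90 for NMJ regions and 8.46, 8.51 and 8.36 for non-NMJ regions. Medians of all rows ran the other way, at 4.52, 4.53 and 4.49 against 4.37, 4.38 and 4.37. Many members shared the same lowest array: NMJ replicate 3 was the lowest NMJ array for 50 of 68 members, and non-NMJ replicate 3 the lowest non-NMJ array for 46. After median centring the median of all rows moved from -0.01 to -0.15, and 52 members were called lower, while 15.8% of all rows were. After quantile normalization 54 members were called lower, against 14.1% of all rows. No member was called higher in either fit.

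Other genes of mitochondrial protein synthesis were lower in part. Of 16 measured translation factors, 6 fell and 0 rose, with a median log2 difference of -0.37. Without non-NMJ replicate 1 or 2 or NMJ replicate 1 the count was 3, and without NMJ replicate 3 it was 4. Slirp, an RNA-binding partner of Lrpprc that stabilises mitochondrial messenger RNA, fell by 0.67, Guf1, a GTPase of mitochondrial translation, by 0.70 and Taco1, an activator of the translation of a cytochrome oxidase subunit, by 0.56. Gfm2, a factor of ribosome recycling, and Tsfm, an elongation factor, fell by 0.49 and 0.50. These last genes each lost the call in 4 or 5 of the fits without 1 array (highest limma adjusted p = 0.0686 for Gfm2 and 0.062 for Tsfm). Of 3 measured ribosome proteins with other symbols, Chchd1 fell by 0.84, and Ptcd3 and Gadd45gip1 had differences of -0.27 and 0.18 that did not pass.

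Genes for assembly of the mitochondrial ribosome had a median near that of all rows. Of 20 measured, 2 fell and 0 rose (4 lower and 2 higher at an unadjusted p under 0.05 in limma), with a median of 0.09, which became -0.11 after quantile normalization and -0.05 after median centring. Mpv17l2, a protein needed for assembly of the particle, fell by 0.56 and kept its call without each array in turn. Mtg1, a GTPase that acts on the large subunit, also fell by 0.56 but lost its call without NMJ replicate 1, NMJ replicate 3 or non-NMJ replicate 2 (highest limma adjusted p = 0.0786). Mettl15, which methylates the ribosomal RNA of the small subunit, had a difference of 1.00 ± 0.30 (SE) that did not pass (limma adjusted p = 0.0614). With quantile normalization 5 genes of this list were called lower.

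Regulators and the machinery of mitochondrial DNA moved both ways. Ppargc1a, the coactivator that promotes mitochondrial biogenesis, had log2 values of 7.99, 8.11 and 7.96 in NMJ regions and 9.19, 9.29 and 9.08 in non-NMJ regions, and its decrease of 1.17 ± 0.10 (SE) on the log2 scale had a limma adjusted p of 0.000576. Every NMJ array of Ppargc1a was below every non-NMJ array by a wide margin, and its call held without each array in turn. Of 10 regulators, 3 fell (Ppargc1a, Esrra by 0.44 and Ppargc1b by 0.33) and 1 rose (Gabpb1, a subunit of the ETS factor GABP, by 0.87). Among the 6 fits that left out an array, the latter 3 genes each lost the call in 4 or more. The count of lower regulators was 1 without any 1 array other than non-NMJ replicate 2, and that of higher ones was 0 without NMJ replicate 1 or 2 or non-NMJ replicate 2 or 3. Of 7 genes of mitochondrial DNA maintenance and transcription, Tfam, which packages mitochondrial DNA and starts its transcription, fell by 0.59, while Polg2 and Ssbp1, of DNA replication, rose by 0.66 and 0.67. Every array's value of Polg2 lay below the median of that array, so its level over background is unknown. Tfam lost its call without NMJ replicate 1 or 3 (highest limma adjusted p = 0.0588), and Ssbp1 without NMJ replicate 1 or 2 or non-NMJ replicate 2 (highest 0.0637) and after quantile normalization (0.0512).

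**Figure D4:**
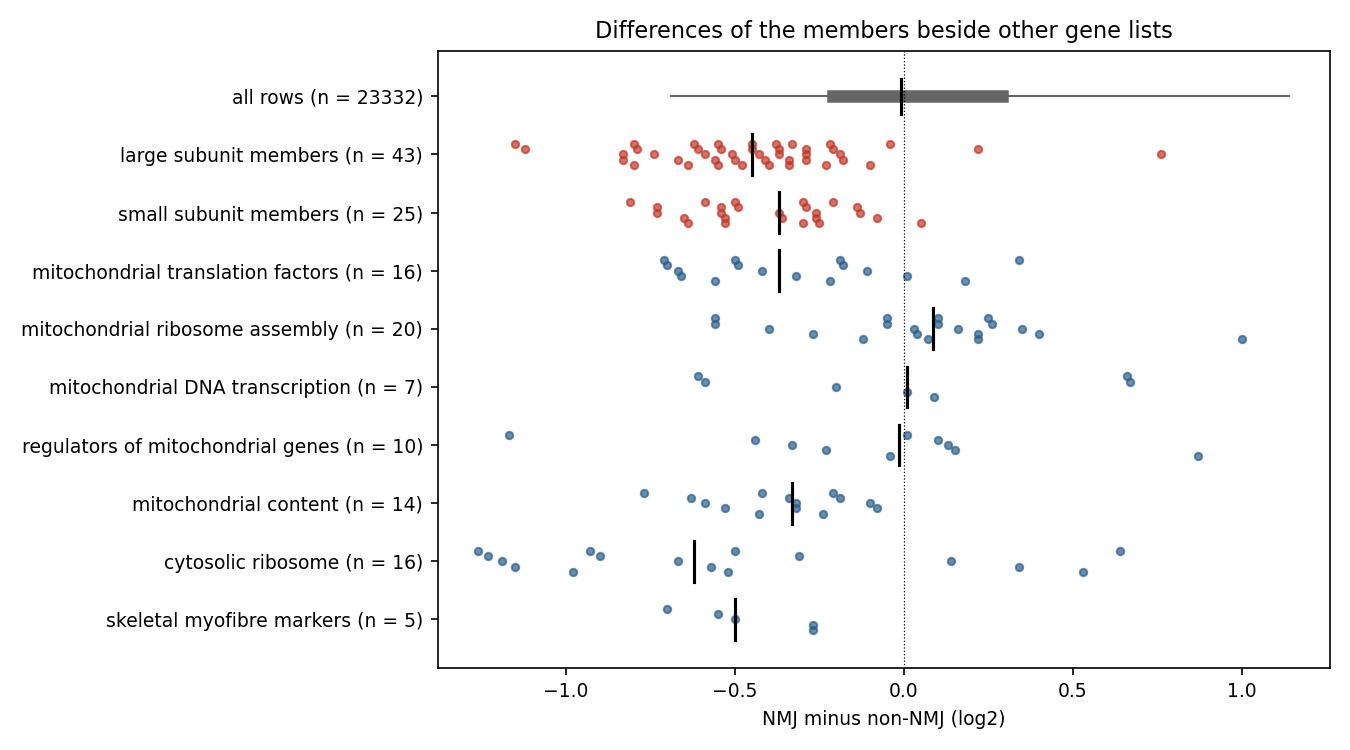
Log2 differences, NMJ minus non-NMJ, of the large and small subunit members (red) and of genes in other lists (blue), 1 point per gene, with list medians as black bars. For all 23332 rows the thick bar spans the 25th to 75th percentile and the thin line the 5th to 95th. In the main fit shown, the medians of the subunits lie at -0.45 and -0.37, beside -0.33 for mitochondrial content and -0.50 for myofibre markers.

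Markers of mitochondrial content and of the contractile fibre were lower in the same arrays. Of 14 genes of mitochondrial content, 9 fell and 0 rose, with a median of -0.33, and 4 or 5 remained called without any 1 array other than non-NMJ replicate 3. Among them Idh3a of the citric acid cycle fell by 0.77 and the outer membrane channel gene Vdac3 by 0.63. Of 5 measured myofibre markers all fell, with a median of -0.50, and the mean log2 level of the list ranged from 12.44 to 12.48 on the NMJ arrays and from 12.89 to 12.93 on the non-NMJ arrays. The muscle creatine kinase gene Ckm fell by 0.50 and Acta1, skeletal actin, by 0.27. Without any 1 array, and after quantile normalization, 3 myofibre markers passed. Quantile normalization gave medians of -0.24 for mitochondrial content and -0.29 for myofibre markers, beside -0.50 for all members. Median centring gave -0.47, -0.64 and -0.58 in the same order. All 5 Schwann cell markers and all 6 fibroblast markers rose, with mean log2 levels of 7.77 to 7.87 and 9.18 to 9.23 in NMJ regions against 4.84 to 5.08 and 7.33 to 7.51 elsewhere. Of 6 endothelial markers 4 fell, and of 5 mural cell markers 4 fell. Of 5 macrophage markers 1 rose (Mrc1, by 1.85) and 1 fell. Mean log2 levels of these lists, in this order, were 6.46 to 6.61, 6.66 to 6.78 and 5.71 to 5.82 in NMJ regions. Elsewhere they were 6.87 to 7.06, 7.39 to 7.40 and 5.38 to 5.67. The median difference of the macrophage markers was -0.19, unlike the order of their mean levels. Without any 1 array other than non-NMJ replicate 3, 2 endothelial markers passed, and the lower macrophage marker, Cd68, passed in none of the 6 fits without 1 array. In these pooled captures, fewer fibre transcripts in the cut area and less RNA of these genes per fibre cannot be told apart, and the part of other cells in the members' decrease was not tested. The synaptic marker genes of the fibre, Chrna1, Chrne, Chrnd, Musk and Etv5, had mean log2 levels of 10.79 to 10.83 in NMJ regions and 5.25 to 5.57 elsewhere, as the region labels state.

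Genes of the cytosolic ribosome, which translates nuclear messenger RNAs outside mitochondria, were lower in part. Of 16 measured, 8 fell and 0 rose, with a median of -0.62, and 6 to 8 fell without each array in turn. Rps3 fell by 0.98 and Rps9 by 0.57. Rpl10a, Rps24, Rpl37 and Rps18 had positive differences (0.53, 0.64, 0.34 and 0.14) that did not pass in the main fit. Rows of Rpl37, Rps18 and the called Rps15, among others, lay near or below the array medians. Their level over background is unknown. In 2 fits that left out an array (NMJ replicate 2 and non-NMJ replicate 1), 1 gene of this list was called higher. Processed pseudogenes of these genes are numerous and can share probes, so the values are uncertain, and the 16 are a minor part of the 79 in the list.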

How the data were processed

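The deposited values are gene-level log2 expression values that the authors made with RMA, per the submitters' processing notes, which also name Affymetrix Expression Console and Transcriptome Analysis Console. No version, setting or genome build is given in the sources used here. Values between 0.87 and 13.97 showed the scale to be log2. Gene symbols came from the platform's annotation, and all 68 members had the same symbol in RefSeq by gene identifier.

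Differences, NMJ minus non-NMJ, were fitted over all 23332 rows by limma 3.58.1 (R 4.3.3; lmFit, then eBayes, two-sided, without a term for replicate number). Benjamini-Hochberg adjustment covered every row, and rows with an adjusted p under 0.05 were called. RMA values compress differences at both ends of the brightness range, no detection calls were used, and precision is limited by the number of arrays. The fit was tested on simulated data, where it made 3 false calls over 23332 rows. It recovered 1 of 67 rows changed by 0.5 log2 units, 40 of 67 by 1.0 and 64 of 66 by 2.0. Far fewer rows were changed there than were called in the data, so recovery need not be the same.

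Values are given in full for up to 12 members called each way with the largest differences, for the stalk, decoding and Mrps18 genes, and for the largest uncalled difference in each subunit; others were named after their values were seen. From other lists the up to 5 genes with the smallest unadjusted p were eligible. The members and lists were chosen with earlier results of these data known. Lists are described by counts and medians, with no test of a list. Genes known for the mitochondrial ribosome that had no row with only their symbol, such as Mrpl53, Mrps6 and Mrps22, were not analysed as members. Deviations from region means had correlations over all rows of 0.047, 0.035 and 0.184 for same-numbered arrays. Those of differently numbered arrays ran from -0.15 to 0.111. These values do not settle whether same-numbered arrays are paired. Alternatives were a replicate block, other scalings, filters, variance models and thresholds, another row per gene, another subunit assignment and the omission of each array. The NRF1 letters searched in promoters are a shortened core, chosen after a longer form had been searched.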

Additional observations from a re-analysis of the deposited data

How the results depend on the processing

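The member differences were tested under 14 other fits of the data and under other thresholds, rows and subunit assignments, and 0 members were called higher under any of them. Of the 39 members called lower, 23 were called in every one of those fits. With the replicate number as a replicate block, 34 members were called lower (22 large, 12 small) and 5064 rows in all, and Mrps18b did not pass (adjusted p = 0.0694). Whether same-numbered arrays are paired is not settled, so the block is given only as a value. Omission of single arrays left 24 to 35 members called lower, 15 to 23 of the large subunit, and 3373 to 4706 rows in all. The medians then ranged from -0.54 to -0.39 for the large and from -0.48 to -0.37 for the small subunit. At an adjusted p under 0.01, 22 members were called lower, 13 of them of the large subunit, with 2776 rows in all. Median centring moved the medians to -0.58 for all members, -0.59 for the large and -0.51 for the small subunit, by its own construction. Quantile normalization gave -0.50 for the small subunit; the cause was not tested. With Mrps18a and Mrps30 in the large subunit and Mrps36 left out, the small subunit median was -0.49. The row with the lowest mean turned Mrpl48 to -0.45 (adjusted p = 0.0629). Arrays left out reduce the number of samples, and array number rather than any count depth limits these values.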

Other observations

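Rows shared with another gene held 3 more genes of the mitochondrial ribosome, and their values cannot be given to either gene. The row of Ccdc142 and Mrpl53 had log2 values of 6.32, 6.27 and 6.20 in NMJ regions and 6.99, 6.91 and 6.75 elsewhere, a difference of -0.62 ± 0.10 (SE, limma adjusted p = 0.00647). The row of Mrps6 and Slc5a3, a myo-inositol transporter gene, had a difference of -0.02, and that of Mrps22 and Capza1, an actin capping protein gene, one of -0.16. Neither passed.

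Mrps36, assigned to the alpha-ketoglutarate dehydrogenase complex, differed by -0.26 ± 0.12 on the log2 scale (SE), which missed the threshold (limma adjusted p = 0.197). Other genes of that complex, picked after the values of Mrps36 were seen, stood at -0.04 for Ogdh, -0.16 for Dlst and -0.53 for Dld, of which Dld passed (limma adjusted p = 0.0173). Dld also serves other dehydrogenase complexes.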
